A study of Mus musculus with 12 samples.

Results

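Galectins are secreted and cytosolic proteins that bind galactose-containing sugars on glycoproteins, and they cross-link receptors at the cell surface or mark vesicles whose sugars have become exposed to the cytosol. Their genes are read here in the left ventricle of the mouse heart through 5 family members, Lgals1, Lgals3, Lgals9, Lgals8 and Lgals4, found by gene symbol among 17471 listed genes. In the injured heart, Lgals3 is known as a product of activated macrophages and as a marker of fibrosis and heart failure, Lgals1 is widely made by stromal and immune cells, and Lgals9 is known for acting on T cells and myeloid cells. Lgals8 is a sensor of damaged vesicles, and Lgals4 is best known from the epithelium of the gut.

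The 4 groups held 3 libraries each. Cre-positive mice carried MerCreMer, a recombinase that tamoxifen switches on, under the promoter of their own Postn gene, which is active in myofibroblasts, and had either permanent closure of the left anterior descending artery of the heart (Cre-positive MI, for myocardial infarction) or sham surgery (Cre-positive sham). Cre-negative MI and Cre-negative sham mice were siblings with wildtype Postn. Floxed Yap alleles and a tamoxifen citrate diet begun straight after surgery were common to all 4 groups, so no group had an unmodified Yap gene or was free of the drug. Mice were 6 to 10 weeks old, and ventricles were taken 4 days after surgery. The labels give each replicate only a number, so p-values measure the spread between these samples.

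Libraries held 10257675 to 15176286 expected counts, gene-level read estimates, and a floor of 3 counts equalled 0.198 to 0.292 CPM (counts scaled to the library's total). Summed CPM of 10 cardiomyocyte markers was 75059 to 87366 after MI and 68661 to 130149 after sham surgery in Cre-positive hearts, and 55101 to 72951 after MI and 113887 to 123151 after sham surgery in Cre-negative hearts. Postn, whose locus carries the recombinase, had 649 to 719 CPM in Cre-positive MI and 1700 to 1876 CPM in Cre-negative MI libraries. Yap1 was read in every library, at 90.8 to 112 CPM, and these gene-level counts do not resolve the floxed part of the gene. Cre-positive sham replicate 2 stood apart from the other 11 libraries, with 57.8 on the next principal component after surgery against -21.4 to 14.7, and with 30420 CPM of the slow myosin gene Myh7 where the other 5 sham libraries held 368 to 2727 CPM. Calls and directions of galectin genes that this library changes are given with and without it, as are the counts of called genes in the pathway lists and between genotypes.

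After MI, 3 of the 5 galectin genes rose in both genotypes, Lgals4 fell, a call that rested on few libraries, and Lgals8 did not pass the test. Thus 4 of 5 were called in Cre-positive hearts, where 45.2% of 13678 tested genes were called, and 4 of 5 in Cre-negative hearts, where 54.3% were called (edgeR quasi-likelihood test, Benjamini-Hochberg adjusted p under 0.05). Higher calls made up 25.7% of tested genes in Cre-positive and 29.9% in Cre-negative hearts, and lower calls made up 19.5% and 24.4%. A count over 5 genes is too small to be read against these shares. The members differed in size of change, with log2 fold changes from 5.77 for Lgals3 to -2.11 for Lgals4. In whole ventricle, fewer cells of a type and less RNA per cell cannot be told apart.

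**Figure D1:**
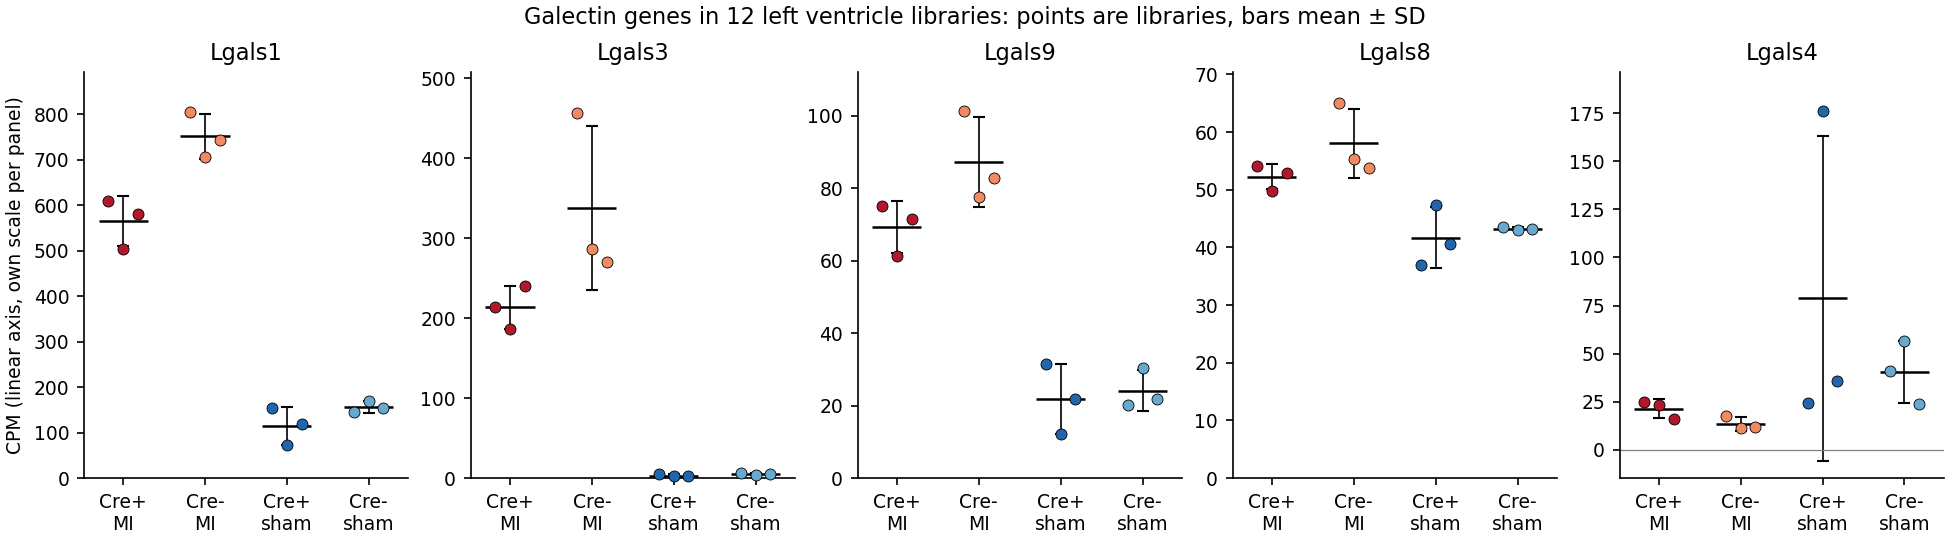
CPM of each galectin gene (linear axis with its own scale in each panel) in the 12 libraries, with points for libraries and bars for the group mean and SD over n = 3. Lgals1, Lgals3 and Lgals9 lie higher in every MI library than in any sham library, and Lgals4 has a single high point of 176 CPM, Cre-positive sham replicate 2, whose group's SD bar reaches below 0.

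Lgals1 encodes galectin-1, a small galectin with a single sugar-binding domain that acts as a dimer, and it lies at mm10 chr15:78926725-78930465 on the plus strand. In Cre-positive hearts it stood at 611, 503 and 582 CPM after MI, against 155, 72.5 and 118 CPM after sham surgery. In Cre-negative hearts it stood at 806, 707 and 743 CPM after MI, against 146, 171 and 155 CPM after sham surgery. The MI and sham libraries did not overlap in either genotype, and the lowest sham value was that of Cre-positive sham replicate 2. In Cre-positive hearts 51.8% of tested genes had CPM values that did not overlap (41.3% higher and 10.5% lower after MI), and in Cre-negative hearts 67.5% had (48.5% higher and 19% lower). The log2 fold change, MI over sham, was 2.07 ± 0.20 in Cre-positive hearts (SE, adjusted p = 7.80e-06) and 2.01 ± 0.20 in Cre-negative hearts (adjusted p = 5.97e-06, edgeR). That is a 4.19-fold and a 4.04-fold rise.

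Lgals3 encodes galectin-3, the only galectin of the chimera type, in which a sugar-binding domain is joined to a long tail that lets the protein form multimers. It lies at mm10 chr14:47373860-47386167 on the plus strand. In Cre-positive hearts it stood at 215, 187 and 240 CPM after MI, against 4.85, 2.86 and 2.15 CPM after sham surgery. In Cre-negative hearts it stood at 456, 286 and 271 CPM after MI, against 6.48, 4.09 and 4.94 CPM after sham surgery. Every MI library was far above every sham library, and all 6 sham libraries held the gene at values over the floor of 3 counts. Its log2 fold change was 5.77 ± 0.28 in Cre-positive hearts (adjusted p = 1.25e-07) and 5.76 ± 0.27 in Cre-negative hearts (adjusted p = 8.97e-08), or 54.4-fold and 54.3-fold. Among the 13678 tested genes, ordered from the largest rise down, it ranked 92 in Cre-positive and 37 in Cre-negative hearts.

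Lgals9 encodes galectin-9, a tandem-repeat galectin in which a linker joins a pair of sugar-binding domains, and lies at mm10 chr11:78962979-78984924 on the minus strand. In Cre-positive hearts it stood at 75.0, 61.3 and 71.5 CPM after MI, against 31.6, 12.2 and 21.8 CPM after sham surgery. In Cre-negative hearts it stood at 101, 77.7 and 82.7 CPM after MI, against 20.1, 30.5 and 21.8 CPM after sham surgery. The groups did not overlap in either genotype, and Cre-positive sham replicate 2 was again the lowest library. The log2 fold change was 1.43 ± 0.25 in Cre-positive hearts (adjusted p = 0.000679) and 1.61 ± 0.25 in Cre-negative hearts (adjusted p = 0.000201), or 2.70-fold and 3.06-fold.

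**Figure D2:**
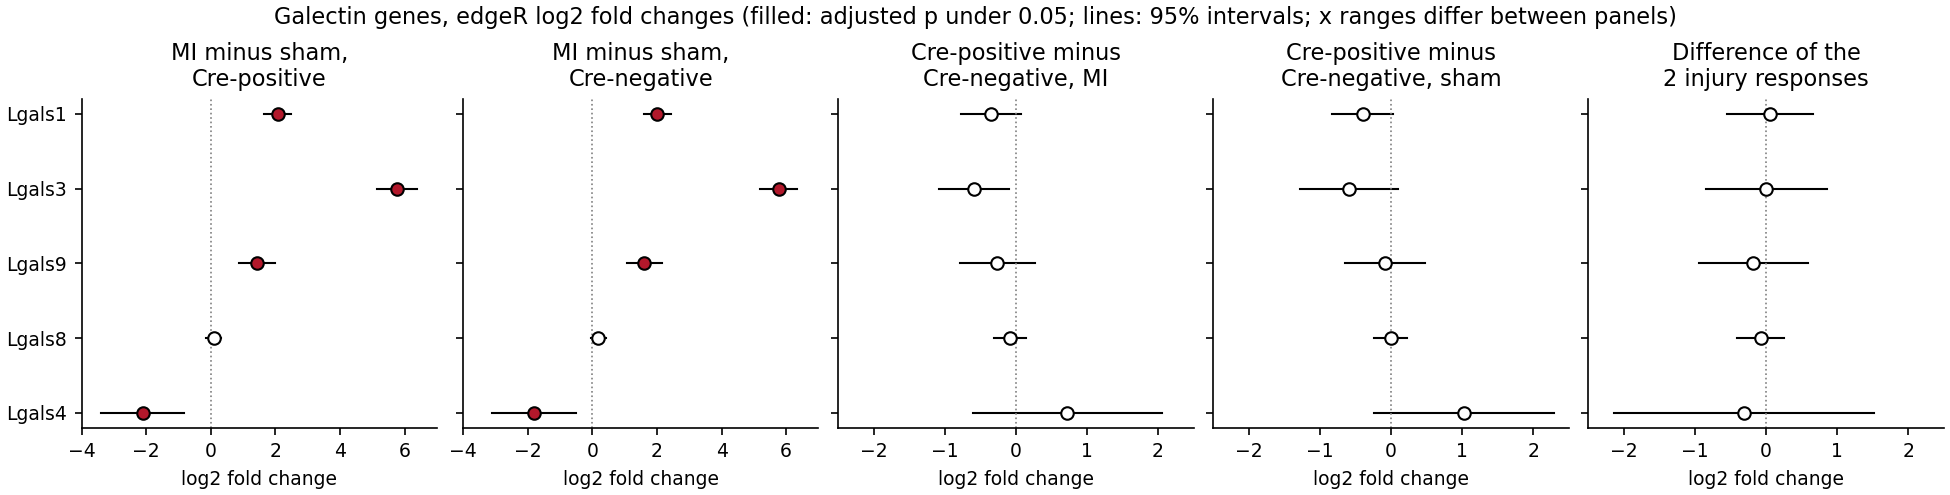
Log2 fold changes of the 5 galectin genes from the edgeR fit in 5 comparisons, with lines for 95% intervals and filled points for an adjusted p under 0.05 (x ranges differ between panels). The injury panels hold 4 filled points each, from -2.11 for Lgals4 to 5.77 for Lgals3, and the genotype and difference panels hold none.

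Lgals8 encodes galectin-8, a tandem-repeat galectin that binds exposed sugars on damaged vesicles and calls in autophagy receptors. It lies at mm10 chr13:12439402-12464977 on the minus strand, and its far end overlaps Heatr1 on the opposite strand by 875 bases. The strandedness of the libraries is not given in the sources used here, so reads from that overlap may belong to either gene. In Cre-positive hearts Lgals8 stood at 54.1, 49.8 and 52.9 CPM after MI, against 37.0, 47.4 and 40.6 CPM after sham surgery. In Cre-negative hearts it stood at 65.0, 55.4 and 53.8 CPM after MI, against 43.5, 43.1 and 43.3 CPM after sham surgery. In CPM the groups did not overlap in either genotype.

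The test uses library sizes rescaled by TMM, with factors of 1.04 to 1.14 in MI and 0.893 to 0.977 in sham libraries, and on that scale the log2 fold change of Lgals8 was 0.10 ± 0.11 in Cre-positive hearts (adjusted p = 0.487) and 0.17 ± 0.11 in Cre-negative hearts (adjusted p = 0.185). Scaled by library size alone, the log2 fold changes were 0.33 (adjusted p = 0.0262) and 0.42 (adjusted p = 0.00525), but that scaling also moved the median of all tested genes to 0.24 and 0.27. Limma on log2 FPKM, which is not rescaled by TMM, called Lgals8 as well under each of 3 settings, with 0.33 in Cre-positive hearts (adjusted p from 0.0224 to 0.0241) and 0.42 in Cre-negative hearts (adjusted p from 0.00484 to 0.00526), where the median of all genes was 0.13 to 0.24 and 0.13 to 0.26. The 95% intervals in the TMM fit were -0.14 to 0.33 in Cre-positive and -0.06 to 0.41 in Cre-negative hearts, below the intervals of Lgals1, Lgals3 and Lgals9.

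Lgals4 encodes galectin-4, a tandem-repeat galectin, and lies at mm10 chr7:28833122-28841710 on the plus strand. In Cre-positive hearts it stood at 25.1, 23.2 and 16.2 CPM after MI, against 24.5, 176 and 35.9 CPM after sham surgery. In Cre-negative hearts it stood at 17.9, 11.4 and 11.8 CPM after MI, against 41.3, 56.5 and 24.1 CPM after sham surgery. The Cre-negative groups did not overlap, whereas in Cre-positive hearts MI replicate 1 lay just above sham replicate 1, and the value of 176 CPM came from Cre-positive sham replicate 2. The log2 fold change was -2.11 ± 0.59 in Cre-positive hearts (adjusted p = 0.0131) and -1.81 ± 0.60 in Cre-negative hearts (adjusted p = 0.0256).

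The calls of Lgals4 in the edgeR fit depended on single libraries. Without Cre-positive sham replicate 2 its log2 fold change was -0.74 in Cre-positive hearts (adjusted p = 0.0544) and -1.83 in Cre-negative hearts (adjusted p = 8.22e-05). The Cre-positive call was also lost without Cre-positive MI replicate 3, with -1.94 (adjusted p = 0.0535). The Cre-negative call was lost when any of 4 libraries was left out, namely Cre-negative MI replicate 2, with -1.69 (adjusted p = 0.0770), Cre-negative MI replicate 3, with -1.73 (adjusted p = 0.0726), Cre-negative sham replicate 1, with -1.78 (adjusted p = 0.0507), and Cre-negative sham replicate 2, with -1.57 (adjusted p = 0.0715). Every one of these fits kept the negative sign. In Cre-negative hearts the log2 fold change stayed between -2.09 and -1.57 whichever library was left out. The authors' DESeq2 comparisons gave -2.14 in Cre-positive (adjusted p = 0.0454) and -1.83 in Cre-negative hearts (adjusted p = 7.36e-12). Lgals6, a near-identical copy of Lgals4 that some mouse strains carry, was not among the listed genes. Reads of such a copy could therefore be counted to Lgals4.

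Gut epithelium is where Lgals4 is best known, so a list of its markers was read in the same libraries. Of 11 such genes 8 were listed, and their summed CPM was 15.4 to 19.9 after MI and 4.21 to 5.09 after sham surgery in Cre-positive hearts, and 13.8 to 18.1 after MI and 4.48 to 7.79 after sham surgery in Cre-negative hearts. The sum was therefore higher after MI, opposite to Lgals4, and most of it came from the keratin genes Krt8 and Krt19. Epcam, a defining epithelial gene, was at 0 in all 3 Cre-positive MI libraries, and Krt20 was at 0 in all 3 Cre-positive sham libraries. In Cre-positive sham replicate 2, where Lgals4 peaked, the gut list summed to 4.83 CPM.

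The same sham library held 35526 CPM of 8 slow and fetal muscle genes, where the other 5 held 2220 to 4803 CPM. Of that sum Myh7 alone held 30420 CPM, and Ankrd1, Nppa, Nppb and Tnni1 also had their highest sham value there. Myh7b and Tnnt1 had their lowest sham value there, at 75.8 and 7.45 CPM, and Acta1 lay within the range of the other sham libraries. This library also held 141 CPM of 13 macrophage markers, the lowest sum of all 12 libraries. The part of these differences in its Lgals4 value was not tested.

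Because CPM favours long transcripts, levels were compared between members by the authors' FPKM, which is per transcript length. In MI libraries of both genotypes the order was Lgals1, Lgals3, Lgals9, Lgals8 and Lgals4, with no overlap between neighbours. In Cre-positive MI libraries their FPKM was 633 to 768 for Lgals1, 136 to 174 for Lgals3, 41.3 to 50.5 for Lgals9, 19.1 to 20.5 for Lgals8 and 11.1 to 17.3 for Lgals4. In Cre-negative sham libraries Lgals1 had 183 to 215 FPKM and Lgals4 was next with 16.5 to 38.8, overlapping Lgals8 at 16.2 to 16.6 and Lgals9 at 13.6 to 20.5. Lgals3, the second most abundant member after MI, was the least abundant in sham hearts, with 1.57 to 3.54 FPKM in Cre-positive sham and 2.99 to 4.64 FPKM in Cre-negative sham libraries.

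The make-up of the family changed accordingly. The 5 genes together averaged 947 ± 90 FPKM after MI and 232 ± 24 FPKM after sham surgery in Cre-positive hearts, and 1281 ± 147 FPKM after MI and 262 ± 27 FPKM after sham surgery in Cre-negative hearts (SD, n = 3 each). Lgals3 made up 16.4% ± 1.2 of that sum in Cre-positive MI against 1.02% ± 0.35 in Cre-positive sham, and 18.9% ± 3.5 in Cre-negative MI against 1.46% ± 0.43 in Cre-negative sham libraries. Lgals1 held 74.1% ± 3.7 in Cre-negative MI against 75.6% ± 3.1 in Cre-negative sham libraries, and 75.0% ± 0.8 in Cre-positive MI libraries. In Cre-positive sham replicate 2 it held 37.9% and Lgals4 held 50.3%, whereas Lgals4 held 6.72 to 13.2% in the other sham libraries and 0.664 to 1.89% in MI libraries.

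**Figure D3:**
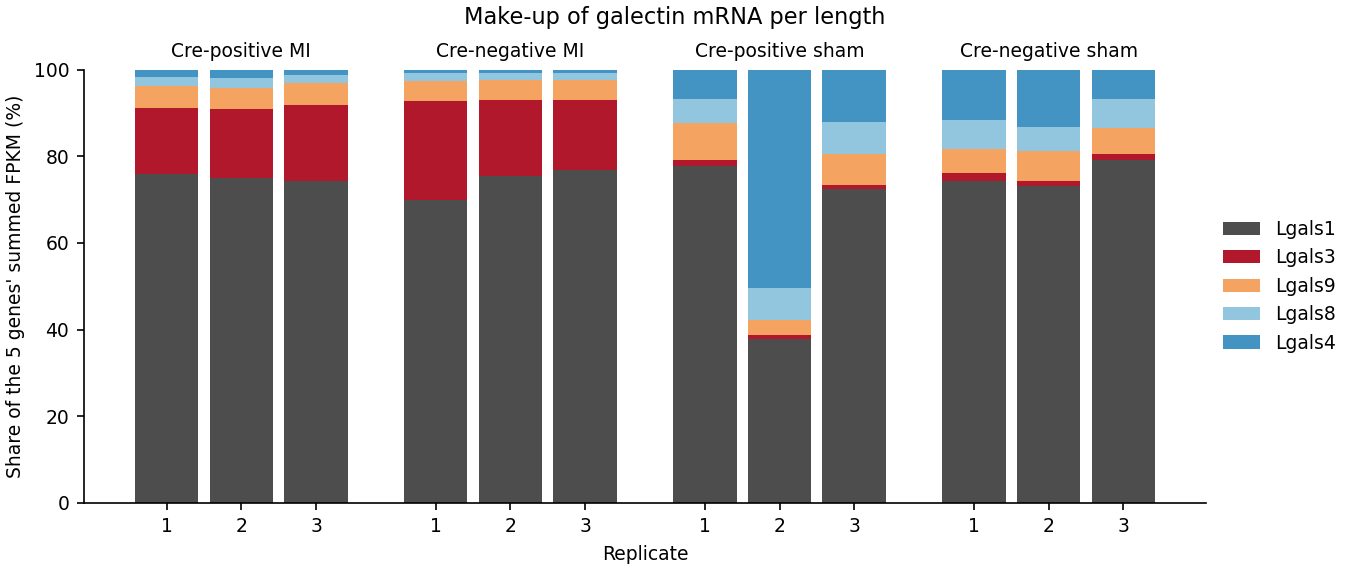
Share of each galectin gene in the summed FPKM of the 5 genes (percent) in every library, with replicates 1 to 3 side by side in each group. The Lgals3 segment covers 15.4 to 22.8% in MI libraries and at most 1.88% in sham libraries, and Lgals4 covers 50.3% in Cre-positive sham replicate 2.

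Between genotypes after MI, no galectin gene passed the test, and neither did any of the 13678 tested genes by edgeR (0% called, 1728 genes at an unadjusted p under 0.05). On the same 12 libraries limma on FPKM called 0 genes. Lgals1, Lgals3 and Lgals9 were lower in every Cre-positive MI library than in any Cre-negative MI library, in the CPM values given above, a pattern that 21.2% of all tested genes shared (28.6% did not overlap in either direction, 7.34% being higher in Cre-positive MI). Cre-positive over Cre-negative MI, the log2 difference was -0.35 ± 0.19 for Lgals1 (adjusted p = 0.501), -0.59 ± 0.23 for Lgals3 (adjusted p = 0.327) and -0.26 ± 0.24 for Lgals9 (adjusted p = 0.710). It was 0.72 ± 0.61 for Lgals4 (adjusted p = 0.681) and -0.08 ± 0.11 for Lgals8 (adjusted p = 0.813). The 95% intervals ran from -0.77 to 0.08 for Lgals1, -1.08 to -0.09 for Lgals3 and -0.60 to 2.05 for Lgals4. That of Lgals3 leaves out 0, but the intervals are not adjusted for the number of genes tested.

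The call in this comparison depended on the model. The authors' deposited table, made with DESeq2, gave log2 differences of -0.33 for Lgals1 (adjusted p = 0.0164), -0.57 for Lgals3 (adjusted p = 0.0194) and 0.74 for Lgals4 (adjusted p = 0.0215), nearly the sizes above. DESeq2 run on only the 6 MI libraries also called these 3 members, at adjusted p = 0.0120 for Lgals1, 0.0129 for Lgals3 and 0.0130 for Lgals4, and it called 946 of 11214 genes in all. DESeq2 on all 12 libraries called none of the 5 members and 177 of 11548 genes. EdgeR without Cre-positive sham replicate 2 called 3 of 13837 genes and no member. Y-linked genes summed to over 10 CPM in 1 of 3 Cre-positive MI and 3 of 3 Cre-negative MI libraries, and in 0 of 3 Cre-positive sham and 2 of 3 Cre-negative sham libraries. Such reads come from male mice, so sex went largely with genotype, and sex and genotype can hardly be told apart here. With a term for Y-linked reads, the difference after MI was -0.33 (adjusted p = 0.700) for Lgals1 and -0.46 (adjusted p = 0.666) for Lgals3, and neither was called.

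After sham surgery no galectin gene differed by the test either, in a comparison that called 0.0512% of genes. Cre-positive over Cre-negative sham, the log2 difference was -0.40 ± 0.20 for Lgals1, -0.59 ± 0.32 for Lgals3, 1.03 ± 0.58 for Lgals4, -0.0044 ± 0.11 for Lgals8 and -0.09 ± 0.26 for Lgals9, with adjusted p from 0.609 to 0.994. All 5 genes overlapped between the genotypes in CPM, where 9.81% of tested genes did not (3.19% higher and 6.62% lower in Cre-positive sham). Without Cre-positive sham replicate 2 the difference of Lgals4 turned to -0.36 (adjusted p = 0.681) and that of Lgals9 to 0.23 (adjusted p = 0.672), and 5 genes were called over all genes in place of 7.

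Whether the response to MI differed between genotypes was tested as the difference of both injury contrasts, Cre-positive minus Cre-negative, which called 0% of tested genes (1116 at an unadjusted p under 0.05, 34 called by DESeq2). The difference was 0.05 ± 0.28 for Lgals1 (95% interval -0.55 to 0.65), 0.0036 ± 0.39 for Lgals3 (-0.84 to 0.85), -0.30 ± 0.84 for Lgals4 (-2.13 to 1.53), -0.08 ± 0.15 for Lgals8 (-0.41 to 0.25) and -0.18 ± 0.35 for Lgals9 (-0.95 to 0.59). For Lgals4 the interval is wider than its own fall after MI, and for Lgals3 it is narrow beside its rise of 5.76. Without Cre-positive sham replicate 2 the difference of Lgals4 was 1.09 (adjusted p = 0.325), and those of Lgals1, Lgals3 and Lgals8 were -0.20, -0.11 and 0.02, none of them called.

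Markers of cells that are known to make galectins moved with these genes. All 13 macrophage markers rose after MI in both genotypes, none was at 0 across a group, and their summed CPM was 2082 to 2326 after MI and 141 to 501 after sham surgery in Cre-positive hearts, and 2753 to 3331 after MI and 398 to 520 after sham surgery in Cre-negative hearts. Lgals3 equalled 8.97 to 10.3% of that sum in Cre-positive MI against 0.58 to 2.03% in Cre-positive sham, and 9.11 to 13.7% in Cre-negative MI against 0.787 to 1.63% in Cre-negative sham libraries. Lgals3 was therefore higher after MI also relative to the macrophage markers. Lgals9 went the other way, with 2.94 to 3.38% in Cre-positive MI against 5.88 to 8.63% in Cre-positive sham, and 2.47 to 3.04% in Cre-negative MI against 4.53 to 5.86% in Cre-negative sham libraries.

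Of 8 fibroblast markers, 6 rose and 1 fell after MI in each genotype, and their summed CPM was 13287 to 14302 after MI and 2047 to 3259 after sham surgery in Cre-positive hearts, and 16900 to 19125 after MI and 3324 to 3745 after sham surgery in Cre-negative hearts. Lgals1 equalled 3.52 to 4.60% of that sum after MI and 3.54 to 4.75% after sham surgery in Cre-positive hearts. In Cre-negative hearts it equalled 4.09 to 4.21% after MI and 4.13 to 5.14% after sham surgery, and the ranges of MI and sham overlap in both genotypes. Its log2 fold change was below those of Col1a1, Col1a2 and Col3a1 and above those of Lum, Pdgfra, Tcf21, Dcn and Gsn, which fell. Pdgfra, Tcf21 and Dcn had 0.64, 0.67 and 0.34 in Cre-positive and 0.51, 0.48 and 0.11 in Cre-negative hearts. Relative to the macrophage sum Lgals1 was lower after MI without overlap, at 24.2 to 27.6% in Cre-positive MI against 30.9 to 51.3% in Cre-positive sham libraries. In Cre-negative hearts it was 22.5 to 27.0% after MI against 32.2 to 36.6% after sham surgery. Its log2 fold change was nonetheless above those of Csf1r, Mrc1 and Cd14 in both genotypes, and above those of C1qa and C1qc in Cre-positive hearts. It was below those of the other macrophage markers. Both marker sums were also lower in every Cre-positive MI than in any Cre-negative MI library, as Lgals1, Lgals3 and Lgals9 were. The part of cell numbers in the galectin differences was not tested.

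**Figure D4:**
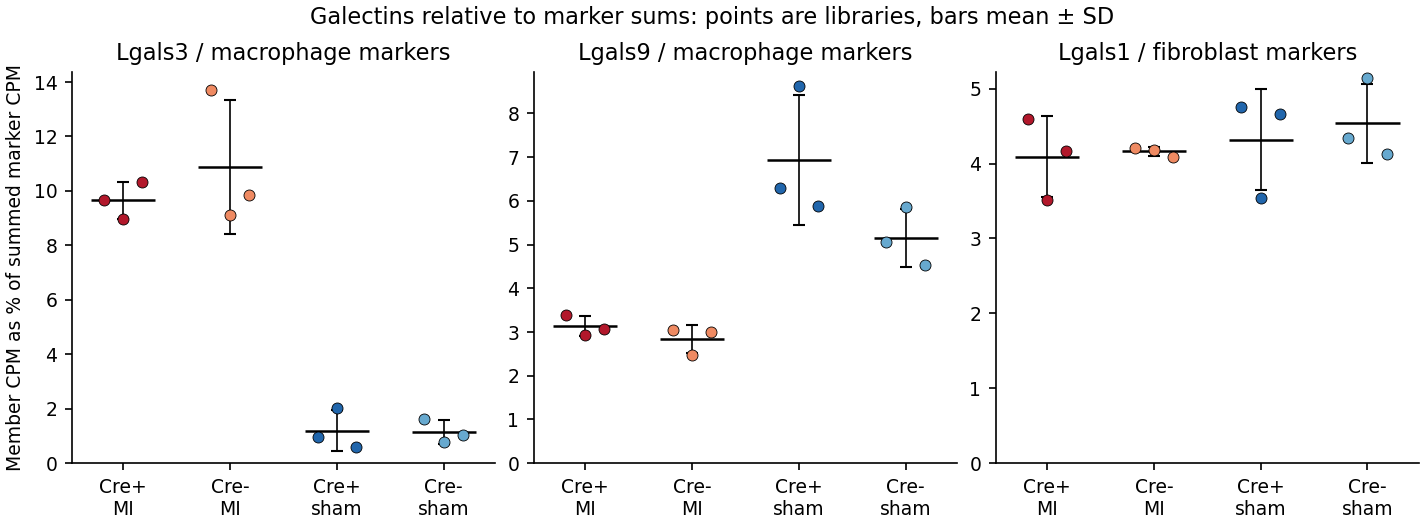
CPM of a galectin gene as a percentage of the summed CPM of 13 macrophage or 8 fibroblast markers, with points for libraries and bars for the mean and SD over n = 3. Lgals3 relative to macrophage markers is 8.97 to 13.7% after MI and at most 2.03% after sham surgery, Lgals9 is lower after MI, and Lgals1 relative to fibroblast markers overlaps between all groups. The largest fibroblast marker is Col1a1 or Col3a1 in MI libraries and Gsn in sham libraries.

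The genes whose pattern over the 12 libraries was most like each called member were found by the root mean square difference of centred log2 CPM, where 0 means the same profile. For Lgals1 they were Dap, a cell death regulator, at 0.075, Arhgap45 at 0.109, and the collagen receptor gene Mrc2 at 0.114, against a median of 1.10 over all genes compared. For Lgals3 they were the metalloprotease gene Adam8 at 0.382, the cell cycle kinase gene Cdk1 at 0.420 and the macrophage glycoprotein gene Gpnmb at 0.422, against a median of 2.92. For Lgals9 they were Crtap, which serves collagen modification, at 0.124, Lgals3bp, a secreted galectin-3 binding protein, at 0.131 and the interleukin receptor gene Il3ra at 0.148, against a median of 0.894.

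For Lgals4 they were Acot2, a mitochondrial thioesterase gene, at 0.313, Ttc25, a gene of the ciliary dynein machinery, at 0.388, and the coiled-coil gene Tacc2 at 0.394, against a median of 1.16. All 3 had their highest value in Cre-positive sham replicate 2, at 451 CPM for Acot2, 3.29 CPM for Ttc25 and 1651 CPM for Tacc2, so this likeness includes the library that stood apart. Among the members themselves, Lgals1 and Lgals9 were the closest pair at 0.293 and Lgals3 and Lgals4 the farthest at 3.85.

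The members that rose after MI and had a window in the RefSeq promoter table (GRCm38.p6, the assembly of mm10) were Lgals3 and Lgals9. Their sequences upstream of the RefSeq start are shown. They run 5′ to 3′ from 250 bases before the annotated start up to the first exon annotated in the window, and capitals mark motif matches on either strand.
Lgals3, chr14:47373610-47373812, plus strand: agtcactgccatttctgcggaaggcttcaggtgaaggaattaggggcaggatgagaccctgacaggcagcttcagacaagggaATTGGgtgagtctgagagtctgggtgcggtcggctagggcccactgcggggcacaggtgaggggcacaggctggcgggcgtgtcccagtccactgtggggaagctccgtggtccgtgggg
Lgals9, chr11:78984947-78985174, minus strand: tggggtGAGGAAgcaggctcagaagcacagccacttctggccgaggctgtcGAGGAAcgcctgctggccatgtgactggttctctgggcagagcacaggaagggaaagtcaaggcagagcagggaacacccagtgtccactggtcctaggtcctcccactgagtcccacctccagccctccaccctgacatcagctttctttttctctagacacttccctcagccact
The full windows of 250 bases were searched on both strands for 6 motifs in 4 members, since none was listed for Lgals1. In Lgals3 the capitals mark a CCAAT box (CCAAT, in 33.85% of 32851 windows of this length), 167 bases before the start, and its window also holds a GC box (GGGCGG, in 32.74%) 7 bases before the start. In Lgals9 they mark a pair of PU.1 cores (GAGGAA, in 23.25%), 244 and 199 bases before the start. The window of Lgals8 (chr13:12461739-12461988) holds a pair of CCAAT boxes, and that of Lgals4 (chr7:28833544-28833793) holds a CCAAT box and a PU.1 core. Both of these windows lie inside the gene spans given above, so they are not upstream of the whole gene. GENCODE, the source of the exons, starts Lgals3 at chr14:47367751, so the Lgals3 window lies inside its GENCODE span as well. None of the 4 windows holds the letters of a TEAD core (GGAATG, in 12.64%), an AP-1 site (TGANTCA, in 6.75%) or a TATA box (TATAAA, in 12.37%). The matches do not overlap each other in these windows. G and C made up 66.0% of the Lgals3 and 58.4% of the Lgals9 window, against a median of 52.4% over all windows.

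Of 6 other galectin genes, 4 were listed and 3 had enough reads to be tested. Lgals7, an epithelial galectin gene that lies 22086 bases beyond Lgals4 on chromosome 7, rose by 3.81 ± 0.76 in Cre-positive (adjusted p = 0.000354) and 1.89 ± 0.56 in Cre-negative hearts (adjusted p = 0.00954). It stayed rare, with 2.13 to 4.23 CPM in Cre-positive MI against 0 to 0.375 in Cre-positive sham, and 1.78 to 2.43 CPM in Cre-negative MI against 0.293 to 0.823 in Cre-negative sham libraries. Lgals12, a galectin gene of fat cells, rose in Cre-positive hearts (4.19 ± 1.43, adjusted p = 0.00724), where MI libraries ranged from 0.225 to 5.37 CPM and sham libraries from 0.0843 to 0.137 CPM. In Cre-negative hearts its log2 fold change was 2.28 ± 1.18 (adjusted p = 0.0831). Of 6 fat cell markers, 5 were tested and 4 of them rose in each genotype. The list summed to 392 to 890 CPM after MI and 230 to 439 CPM after sham surgery in Cre-positive hearts. In Cre-negative hearts it summed to 382 to 562 CPM after MI and 304 to 454 CPM after sham surgery. Fabp4 held most of these sums, with 387 to 720 CPM after MI and 228 to 436 CPM after sham surgery in Cre-positive hearts. It was the tested marker that was not called (adjusted p = 0.183 in Cre-positive and 0.828 in Cre-negative hearts, edgeR). Adipoq, the adiponectin gene of fat cells, had 63.2, 2.204 and 16.7 CPM in Cre-positive MI replicates 1, 2 and 3, in which Lgals12 had 5.37, 0.225 and 1.95 CPM. In Cre-positive sham libraries Adipoq had 0.514 to 0.749 CPM. No fat cell marker was at 0 throughout a group, and their part in the Lgals12 values was not tested. The galectin-like gene Lgalsl had -0.15 ± 0.14 in Cre-positive and -0.21 ± 0.14 in Cre-negative hearts and was not called. Lgals2 had too few reads to be tested, with at most 0.495 CPM in any library.

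The lists that follow were not tested as lists, and their counts stand beside the shares of all tested genes, of which 25.7% rose and 19.5% fell in Cre-positive hearts and 29.9% rose and 24.4% fell in Cre-negative hearts, with medians of 0.02 in both. Of 15 genes of enzymes that build the branched, galactose-ended sugars to which galectins bind, 8 rose and 1 fell in Cre-positive hearts (median log2 fold change 0.49), and 11 rose and 1 fell in Cre-negative hearts (median 0.50). The number called was 10 in Cre-positive and 12 in Cre-negative hearts without Cre-positive sham replicate 2. In Cre-positive hearts Mgat2, which starts a branch of N-linked sugars, rose by 0.78 ± 0.09, and in Cre-negative hearts by 1.03 ± 0.09. Gcnt1, which branches O-linked sugars, rose by 1.21 ± 0.15 in Cre-positive and 1.58 ± 0.14 in Cre-negative hearts. The galactosyltransferase genes B4galt5 and B4galt2 rose by 1.35 ± 0.19 and 0.95 ± 0.14 in Cre-positive hearts and by 1.67 ± 0.19 and 1.05 ± 0.14 in Cre-negative hearts.

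Of 6 genes of enzymes that cap these sugars with sialic acid, 1 rose and 2 fell in Cre-positive hearts (median -0.15), and 2 rose and 2 fell in Cre-negative hearts (median -0.0062). With 45.2% and 54.3% of all tested genes called in either direction, these counts over 6 genes lie near the background. The number called without Cre-positive sham replicate 2 was 4 in each genotype. St6gal1, whose product masks galactose from galectin-1, rose by 1.01 ± 0.16 in Cre-positive and 0.71 ± 0.16 in Cre-negative hearts. St3gal6 and St3gal3, which attach sialic acid in another linkage, changed by -0.51 ± 0.12 and -0.64 ± 0.16 in Cre-positive hearts and by -0.80 ± 0.12 and -0.74 ± 0.16 in Cre-negative hearts. St3gal1 rose by 0.34 ± 0.12 in Cre-negative hearts (adjusted p = 0.0307), and in Cre-positive hearts it had 0.23 ± 0.12 (adjusted p = 0.128).

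Of 18 genes of glycoproteins that galectins are known to bind, 11 rose and 1 fell in Cre-positive hearts (median 1.34), where 25.7% of all tested genes rose, and 13 rose and 1 fell in Cre-negative hearts (median 1.54), where 29.9% rose. With Cre-positive sham replicate 2 left out, 13 were called in Cre-positive and 14 in Cre-negative hearts. The matrix gene Fn1, encoding fibronectin, rose by 4.35 ± 0.22 in Cre-positive and 3.81 ± 0.22 in Cre-negative hearts. Havcr2, encoding the checkpoint receptor TIM-3 described as a partner of galectin-9, rose by 4.23 ± 0.52 in Cre-positive and 3.99 ± 0.45 in Cre-negative hearts. The hyaluronan receptor gene Cd44 rose by 2.58 ± 0.18 in Cre-positive and 2.94 ± 0.18 in Cre-negative hearts, and Pdpn, encoding the mucin-like podoplanin, by 2.11 ± 0.14 and 2.73 ± 0.14. Itgam and Ptprc on this list are also among the macrophage markers above.

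Galectin-3, galectin-8 and galectin-9 take part in the response to damaged vesicles. Of 10 tested genes of that response 1 rose and 5 fell in each genotype (median -0.41 in Cre-positive and -0.29 in Cre-negative hearts), where 19.5% of all tested genes fell in Cre-positive and 24.4% in Cre-negative hearts. Leaving out Cre-positive sham replicate 2 gave 6 called genes in Cre-positive and 7 in Cre-negative hearts. The autophagy receptor gene Optn changed by -1.09 ± 0.14 in Cre-positive and -1.15 ± 0.14 in Cre-negative hearts. Ulk1, the kinase gene at the start of autophagy, and Atg16l1, which serves lipidation of autophagy proteins, changed by -0.47 ± 0.12 and -0.46 ± 0.09 in Cre-positive hearts and by -0.64 ± 0.12 and -0.41 ± 0.09 in Cre-negative hearts. Trim16, whose product works with galectin-3 at damaged vesicles in human cells, rose by 0.80 ± 0.13 in Cre-positive and 0.77 ± 0.13 in Cre-negative hearts. Under scaling by library size alone, and with limma on FPKM, 2 genes of this list were called in Cre-positive hearts. No gene of the 5 lists was called between genotypes or in the difference of the injury responses.

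**Figure D5:**
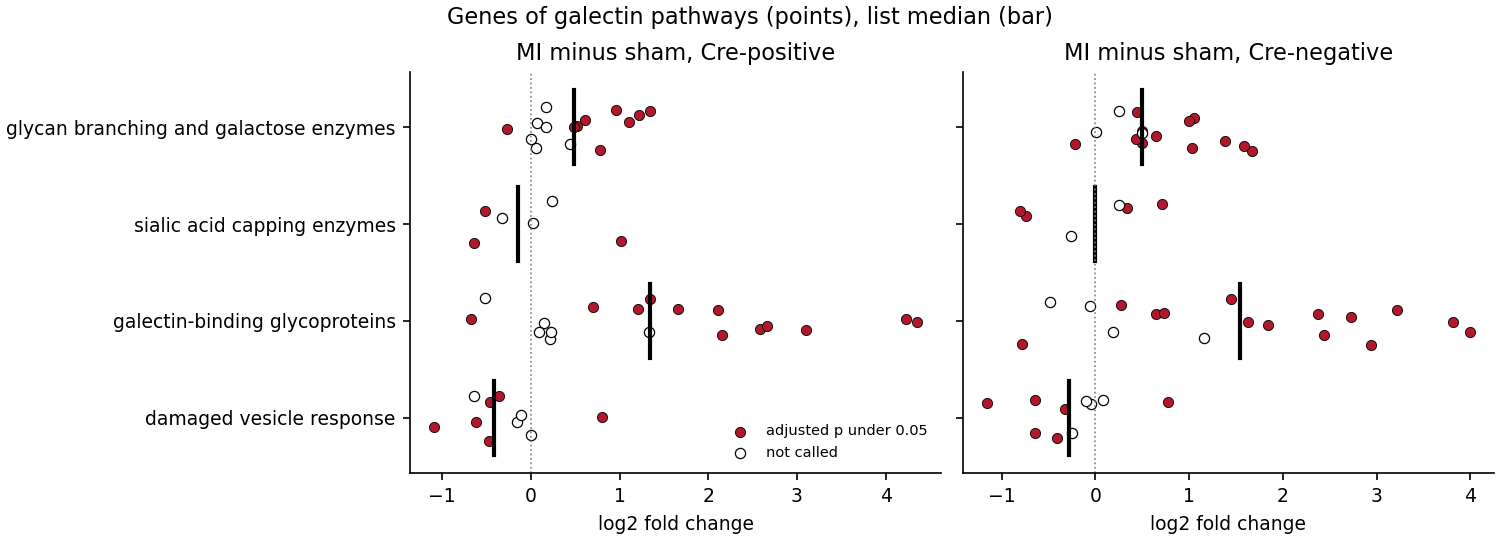
Log2 fold changes after MI of the tested genes in 4 lists related to galectin function (points, filled at an adjusted p under 0.05; vertical bars are list medians), in Cre-positive hearts at left and Cre-negative hearts at right. Medians are 1.34 and 1.54 for galectin-binding glycoproteins and below 0 for the response to damaged vesicles.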

How the data were processed

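RNA of left ventricles was sequenced in 12 libraries, 3 per group. Per the submitters' processing notes, reads were handled with Bowtie2 2.2.5 and RSEM 1.2.12 on mm10. Per the file headers, each library's deposited file gives RSEM expected counts, transcript length and FPKM per gene, computed by the authors. The authors' deposited comparison tables, made with DESeq2 per their names, give log2 fold changes and adjusted p-values. The deposited joined FPKM table was not used.

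Members were matched by symbol, and all 60 of their counts were whole within 0.005 (74.0% of all values above 0). Unlisted genes were set to 0. Expected counts were rounded, filtered with filterByExpr (minimum count 10, which removed 3793 genes), scaled by TMM and fitted in edgeR 4.0.16 (R 4.3.3) with 1 coefficient per group over all 12 libraries. Tests were quasi-likelihood, two-sided, adjusted by Benjamini and Hochberg over 13678 genes within each contrast. The fitting step was tested on simulated data. CPM per library uses library size only. Intervals and floors cover counting or sample error only.

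Alternatives were other scalings, filters, limma 3.58.1 on log2(FPKM + 0.5), DESeq2 1.42.0, a replicate block, a Y-linked term and leaving out each library. Library-size scaling and DESeq2 on only the groups compared were added after seeing the data. The members and gene lists were chosen with earlier results of these data known. Named genes were the members, up to 4 of each pathway list by smallest p in Cre-negative hearts, and the 3 most alike genes per called member. Postn, Yap1, Myh7, Krt8, Krt19 and Adipoq were named as checks, Adipoq after its values were seen. Single macrophage, fibroblast, fat cell and slow or fetal muscle markers were also named after their values were seen. Sequences came from RefSeq, exons from GENCODE.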

Additional observations from a re-analysis of the deposited data

How the results depend on the processing

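The calls of Lgals1, Lgals3 and Lgals9 after MI, in both genotypes, kept their direction and their side of the threshold under all 23 alternatives, 12 of which left out 1 library. Members called after MI numbered 3 to 5 in each genotype, and other galectin genes 1 to 2 in Cre-positive and 1 to 3 in Cre-negative hearts. With the replicate block 4 members were called in Cre-positive and 4 in Cre-negative hearts, and 0 in the other comparisons. Same-numbered libraries deviated together little (18 pairs, r from -0.15 to 0.29, mean 0.04, 4 over 0.1). The 36 pairs of other numbers had r from -0.31 to 0.22 (mean -0.02, 8 over 0.1). The highest r were in MI pairs of the same number, 0.288 for replicate 1 and 0.254 for replicate 3. The numbers were not taken as pairs. Genotype after MI gave 3 called members with DESeq2 on only the groups compared, a setting that called 946 of 11214 genes, and 0 under every other alternative; which feature of the model decides this was not tested. Lgals4 also lost its Cre-positive call with edgeR on only the groups compared (-2.10, adjusted p = 0.0508) and with limma on FPKM, at -1.32 with a pseudocount of 0.5 (adjusted p = 0.0801, or 0.112 without a filter) and -1.34 with 0.1 (adjusted p = 0.0816). It lost its Cre-negative call with a Y-linked term (-1.72, adjusted p = 0.0519) and with limma without a filter (-1.47, adjusted p = 0.0680). Lgals8 gained a call in both genotypes with library-size scaling and with each of 3 limma settings on FPKM. Differences close to 0 changed sign. Lgals8 between sham groups was 0.0073 with RLE, 0.0068 with DESeq2 and 0.0445 with the Y-linked term. The Lgals3 difference of responses was -0.0117 with RLE, -0.0255 with library size, -0.0038 without a filter, -0.0040 with DESeq2, -0.0017 with the Y-linked term and -0.0345 with limma on log2(FPKM + 0.5), with or without a filter, and that of Lgals4 was 0.1454 with the same limma fits and 0.1651 with a pseudocount of 0.1. Leaving out 1 library gave sham differences of -0.3582 to 1.446 for Lgals4, -0.0938 to 0.0703 for Lgals8 and -0.4559 to 0.2308 for Lgals9, and differences of responses of -0.2017 to 0.3404 for Lgals1, -0.2251 to 0.4237 for Lgals3, -0.7116 to 1.0921 for Lgals4, -0.1399 to 0.0242 for Lgals8 and -0.4828 to 0.2038 for Lgals9. With 3 libraries a group, differences as small as those of Lgals8 were not resolved, and Lgals3 in sham libraries rests on 124 reads in Cre-positive and 172 in Cre-negative hearts.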

Other observations

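Other cell type lists were read in the same libraries as descriptions. Summed CPM of 5 monocyte markers was 55.8 to 94.7 after MI and 1.69 to 5.59 after sham surgery in Cre-positive hearts, and 104 to 145 after MI and 5.28 to 6.54 after sham surgery in Cre-negative hearts, and all 5 rose after MI in both genotypes. Summed CPM of 7 myofibroblast markers was 1839 to 2151 after MI and 90.5 to 214 after sham surgery in Cre-positive hearts, and 3251 to 3746 after MI and 214 to 244 after sham surgery in Cre-negative hearts. Neutrophil markers summed to 28.3 to 61.8 CPM in Cre-positive MI and 51.8 to 115 CPM in Cre-negative MI libraries, which overlap. Endothelial markers summed to 907 to 1002 CPM after MI and 803 to 932 CPM after sham surgery in Cre-positive hearts, and to 1002 to 1079 CPM after MI and 841 to 1009 CPM after sham surgery in Cre-negative hearts. Their part in the galectin values was not tested.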
